A study of Rattus norvegicus with 6 samples.

Results

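The data concern 10 genes that mark endothelial cells, the cells that line blood vessels: Kdr, Flt1, Tek, Tie1, Pecam1, Cdh5, Plvap, Vwf, Nos3 and Ramp2. Members were taken by gene symbol from the platform annotation. This gave 8 of the 10 genes, out of 10411 genes with a symbol of their own, and 10 of 15923 probe sets, since Flt1 has 3. No probe set carried the symbol Tek or Cdh5, and these genes were not analysed here. Adherent mesenchymal stromal cells were grown from the mononuclear fraction of 3 rats carrying a GFP transgene, named S4, S5 and S6. Each rat gave 1 culture from bone marrow and 1 from peripheral blood, grown in the same medium to passage 2, and from each culture 10 µg of total RNA went to 1 Affymetrix RAE230A array. The 2 groups of 3 arrays, marrow and blood, are therefore paired by rat. Both groups come from transgenic animals, and the sources used here do not give the promoter of the transgene, the strain or the age.

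Endothelial identity rests on a few receptor systems and on proteins of the vessel wall. VEGF binds the receptor tyrosine kinases encoded by Kdr and Flt1, and angiopoietins act through Tek with its relative Tie1. Neighbouring cells are held together by VE-cadherin (Cdh5) and PECAM-1, while von Willebrand factor, endothelial nitric oxide synthase and plasmalemma vesicle associated protein serve haemostasis, vessel tone and permeability. Marrow stroma is built around vessels, and early adherent cultures of marrow or blood can hold cells from them.

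Signals are given in log2 units as deposited, with the base read from the range of the values. The median of all values was 8.18, and array medians lay between 8.12 and 8.22. No detection calls were used, so a level below that median has no known background. As a reference, 27 probe sets for Bacillus subtilis genes on the same arrays read 1.75 to 7.88, with a median of 5.42. Whether RNA of these genes had been added is not given in the sources used here. Of 60 member values, 52 lay at or below the highest of these bacterial readings. On 8 of 10 member probe sets all 6 values did. On the marrow array of rat S6 a reading of 7.88 stood at the 43.2nd percentile, so many other probe sets also fell under it. Of the members, only Pecam1 (3.14 to 5.32) lay under the median of the bacterial readings on all 6 arrays. Of the 10 member probe sets, 1 (a Flt1 probe set) was above the median on all 6 arrays and 9 were below it on all 6. Among all 15866 probe sets other than controls, 42.5% were above the median on all 6 arrays and 42.2% below it. Probe sets differ in how strongly they bind, so these positions do not rank the genes by their amount of RNA, and in RNA of a whole culture fewer cells of a type and less RNA per cell cannot be told apart.

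**Figure D1:**
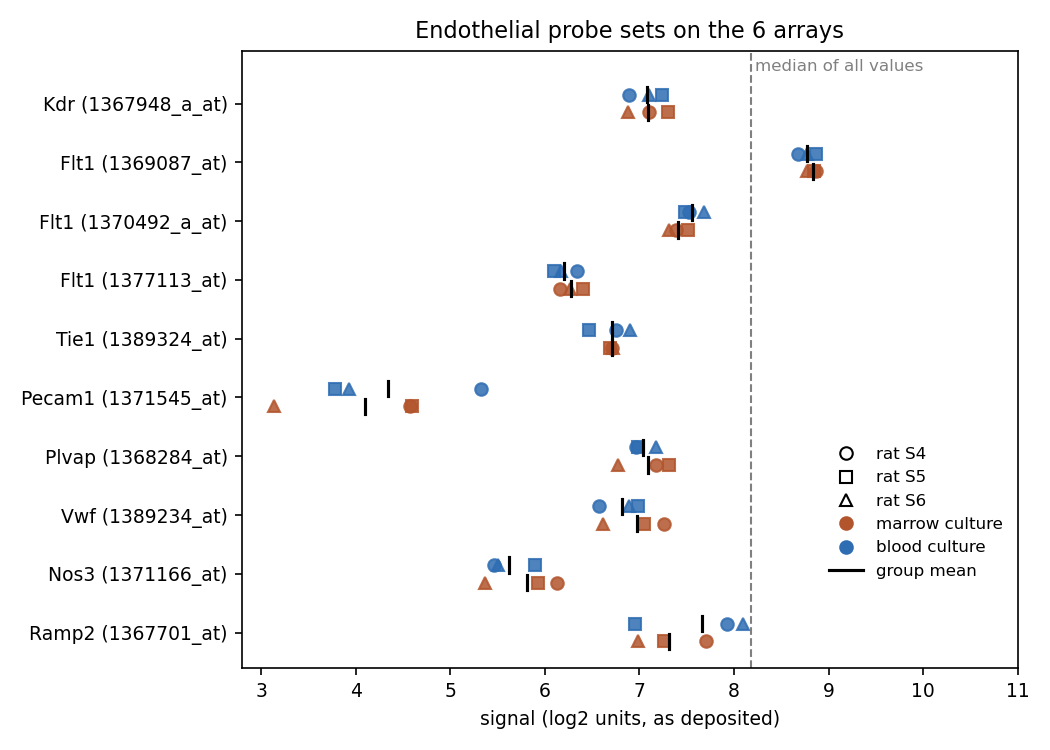
Signal of each of the 10 endothelial probe sets (horizontal axis, log2 units as deposited) on the 6 arrays, marrow cultures in brown and blood cultures in blue, with rats by symbol and the group means as black bars. A single Flt1 probe set lies right of the dashed line at the median of all values, 8.18, and marrow and blood values overlap in every row.

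The comparison of blood with marrow cultures asked how stromal cells of these sources from the same animal differ. No endothelial member passed the threshold: 0 of 10 probe sets had an adjusted p under 0.05 in limma with the rat as a term and Benjamini-Hochberg adjustment over all probe sets, and 0 had an unadjusted p under 0.05. Adjusted p of the members ran from 0.789 to 1. Over all 15866 probe sets, 82 passed, or 0.517%, of which 42 had more and 40 less signal in blood, and 11.2% had an unadjusted p under 0.05. Without the rat as a term the counts were 39 higher and 63 lower, and again 0 members. No probe set passed without rat S4 or without rat S6, and 165 did without rat S5. Both groups overlapped on all 10 member probe sets, where 16.3% of all probe sets had groups that did not overlap. None of the 10 moved the same way in all 3 rats, against 31.6% of all probe sets. Mean differences of blood minus marrow lay between -0.19 and 0.35. In a fit this small, a p that misses the threshold does not show that levels were equal, so the 95% interval of each difference is given below. These intervals lay within 1 log2 unit, a change of 2-fold, on 8 of 10 probe sets, and within 1.5-fold on 6.

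**Figure D2:**
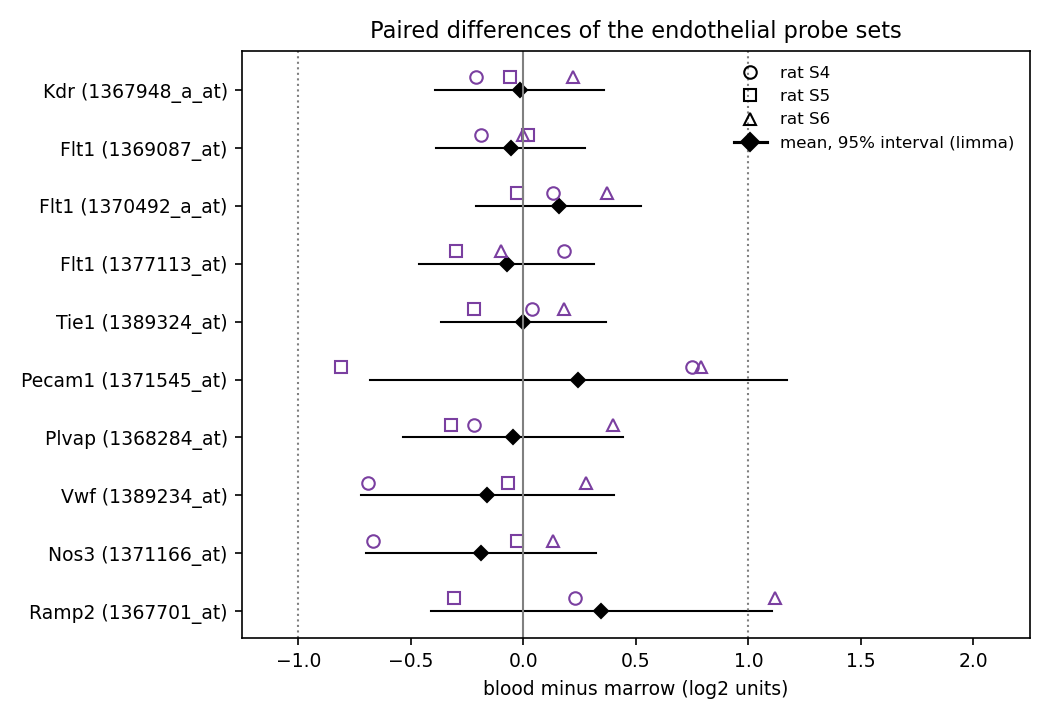
Blood minus marrow difference of each endothelial probe set (horizontal axis, log2 units), as an open symbol per rat and as a black diamond with the 95% interval from limma. All 10 intervals include 0, and those of Pecam1 and Ramp2 reach beyond the dotted line at 1.

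Among the receptors, Kdr encodes VEGF receptor 2, the main signalling receptor for VEGF on endothelium. Its probe set read 7.10, 7.30 and 6.88 in marrow cultures of rats S4, S5 and S6, and 6.89, 7.24 and 7.10 in blood cultures. All 6 values lay within 0.42 of each other, between the 23.7th and 31.0th percentile of their arrays, and neither group stood above the other. Relative to the median of all values, group means were -1.09 ± 0.21 in marrow and -1.10 ± 0.18 in blood cultures (SD, n = 3). The difference was -0.02 ± 0.15 (SE), with an interval of -0.39 to 0.36 (limma adjusted p = 0.992).

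Flt1 encodes VEGF receptor 1, which binds VEGF tightly and also exists as a soluble decoy. On its brightest probe set, 1369087_at, marrow cultures read 8.87, 8.85 and 8.77 and blood cultures 8.68, 8.87 and 8.77, in the order S4, S5 and S6. This was the only member probe set above the table's median, at the 59.5th to 66.7th percentile, and its values spanned only 0.19. Relative to the median, group means were 0.65 ± 0.05 in marrow and 0.59 ± 0.10 in blood cultures. Among all probe sets, 3.86% had a smaller SD over the 6 arrays. Its difference was -0.06 ± 0.13, with an interval of -0.39 to 0.28 (limma adjusted p = 0.944).

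The other Flt1 probe sets read lower on the same RNA. Probe set 1370492_a_at gave 7.39, 7.51 and 7.31 in marrow and 7.52, 7.48 and 7.68 in blood cultures. Probe set 1377113_at gave 6.16, 6.40 and 6.27 in marrow and 6.34, 6.10 and 6.17 in blood cultures. Means of the 3 Flt1 probe sets were thus 8.80, 7.48 and 6.24 for 1 gene, while each kept within 0.37 over the 6 arrays. Against the median, the 2 dimmer ones stood at -0.78 ± 0.10 and -1.90 ± 0.12 in marrow and at -0.62 ± 0.11 and -1.98 ± 0.12 in blood cultures. Their differences had both signs, at 0.16 ± 0.14 (-0.21 to 0.52) and -0.07 ± 0.15 (-0.46 to 0.32) for the dimmer probe sets (limma adjusted p = 0.808 and 0.935). Averaged over the 3 probe sets, the Flt1 difference was 0.0089.

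Tie1, a receptor that modulates angiopoietin signalling through its partner Tek, read 6.71, 6.69 and 6.72 in marrow and 6.75, 6.47 and 6.90 in blood cultures. The marrow values were nearly the same in all 3 rats, and the blood values lay on both sides of them. Group means were both 6.71, or -1.47 against the median (SD 0.02 in marrow and 0.22 in blood), and the interval of the difference ran from -0.37 to 0.37 (limma adjusted p = 1).

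Of the junction and surface proteins, Pecam1 encodes CD31, an adhesion molecule of endothelial contacts that is also carried by platelets and leukocytes. Its probe set was the dimmest member, with 4.57, 4.59 and 3.14 in marrow and 5.32, 3.78 and 3.93 in blood cultures. It also varied most, with a span of 2.18, and lay between the 0.648th and 5.99th percentile of the arrays. Group means were -4.08 ± 0.83 in marrow and -3.84 ± 0.85 in blood cultures against the median. Blood was higher by 0.75 in rat S4 and 0.79 in rat S6 and differed by -0.81 in rat S5. The mean difference was 0.24 ± 0.36, with an interval of -0.68 to 1.17 (limma adjusted p = 0.904). Without rat S5 it was 0.77 (limma adjusted p = 0.218), and without rat S4 or S6 it was -0.01 or -0.03. Of 310 probe sets with a mean within 0.5 of that of Pecam1, 68.1% had a smaller SD, against 94.4% of all probe sets.

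Plvap, which forms the diaphragms of endothelial fenestrae and caveolae, read 7.18, 7.31 and 6.77 in marrow and 6.96, 6.99 and 7.17 in blood cultures. Blood was lower in rats S4 and S5 and higher in rat S6, with group means of -1.09 ± 0.28 in marrow and -1.14 ± 0.11 in blood cultures against the median. The difference was -0.05 ± 0.19, with an interval of -0.53 to 0.44 (limma adjusted p = 0.971).

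Vwf encodes von Willebrand factor, the multimeric protein of endothelium and platelets that captures platelets at an injured wall. Values were 7.26, 7.05 and 6.61 in marrow and 6.57, 6.98 and 6.89 in blood cultures. The marrow culture of rat S4 was highest and its blood culture lowest, a difference of -0.69, whereas rats S5 and S6 differed by -0.07 and 0.28. Marrow averaged -1.21 ± 0.33 and blood -1.37 ± 0.22 against the median. The mean difference was -0.16 ± 0.22, with an interval of -0.72 to 0.40 (limma adjusted p = 0.890).

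Nos3 encodes the endothelial nitric oxide synthase, which relaxes vascular smooth muscle. It read 6.13, 5.93 and 5.37 in marrow and 5.46, 5.90 and 5.50 in blood cultures, at or below the 12.4th percentile of every array. Again rat S4 gave the widest difference, -0.67, against -0.03 and 0.13 in rats S5 and S6. Marrow averaged -2.37 ± 0.39 and blood -2.56 ± 0.24 against the median. The mean was -0.19 ± 0.20, with an interval of -0.70 to 0.32 (limma adjusted p = 0.841).

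Ramp2 encodes the accessory protein that turns the calcitonin receptor-like receptor into a receptor for adrenomedullin. It read 7.70, 7.26 and 6.98 in marrow and 7.93, 6.95 and 8.10 in blood cultures. The blood culture of rat S6 came closest to the table's median, at the 48.5th percentile. Group means were -0.87 ± 0.36 in marrow and -0.52 ± 0.62 in blood cultures against the median. Blood was higher by 0.23 in rat S4 and by 1.12 in rat S6 and differed by -0.31 in rat S5. The mean of 0.35 ± 0.29, with an interval of -0.41 to 1.10, was the largest mean difference among the members (limma adjusted p = 0.789). It was 0.68 without rat S5 and -0.04 without rat S6.

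By rat, the signs of the members were uneven. In rat S5 blood was lower on 9 of 10 member probe sets and higher on 1, in rat S6 it was higher on 8 and lower on 1, and in rat S4 5 were higher and 5 lower. Over all probe sets blood was lower on 58.1% and higher on 40.4% in rat S5, higher on 48.0% and lower on 50.6% in rat S6, and higher on 55.3% and lower on 43.6% in rat S4. The 10 probe sets share arrays and 3 share a gene, so these counts are a description. Arrays of rats S4 and S5 were run on 1 fluidics station and those of rat S6 on another, so rat S6 and its station cannot be told apart.

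Likeness of pattern was measured as Pearson's r over the 6 arrays, with all points sharing the same libraries. For the bright Flt1 probe set the highest r were those of Agxt at 0.996, Ranbp1 at 0.996 and Synpo2l at 0.989. In all, 183 of 12721 probe sets exceeded 0.9 with it, over a span of only 0.19 for Flt1. For Ramp2, the member with the smallest p, they were Slc12a9 at 0.997, Ccn3 at 0.985 and Apoa5 at 0.980, and 56 of 12723 exceeded 0.9.

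Marker lists placed the endothelial members beside other cells. With 1 probe set per gene, the brightest, 1 of 8 endothelial members was above the median on all 6 arrays, with a list median at the 24.7th percentile of mean signal. Of 46 further endothelial genes on the array 11 were above it on all 6 arrays, 22 on none and 13 on some, with a list median at the 43.0th percentile. Among all genes 49.4% were above it on all 6 arrays. The 11 were Eng, Icam1, Vcam1, Egfl7, Ece1, S1pr3, Ets1, Klf2, Klf4, Gpr4 and Cdh13, many of which stromal cells also make. Which cells gave these signals was not tested. Other genes that mark endothelium, picked after their values were seen, lay on both sides of the median. Cldn5, the claudin of tight junctions, read 6.67 to 7.07, Emcn, endomucin, 6.49 to 6.79 and Icam2 6.32 to 6.82, all below it on every array. Erg, an ETS factor of endothelium, read 8.01 to 8.73 and was above it on 4 of 6 arrays, and Egfl7, a secreted factor of endothelium, read 8.43 to 8.94 and was above it on all 6.

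By the same count, 9 of 12 stromal markers, 9 of 16 leukocyte and macrophage markers, 5 of 13 mural markers and 2 of 8 platelet markers were above the median on all 6 arrays. Col1a1, a collagen chain of fibroblasts, read 12.32 to 13.02. Stromal markers did not all move alike. Postn read 12.09 to 12.54 in marrow and 7.86 to 11.52 in blood cultures, and Pdgfra 11.35 to 11.94 and 8.91 to 10.84. Nt5e read 8.43 to 9.17 in marrow and 9.39 to 9.88 in blood cultures. Of the 12 stromal genes, 7 had a mean difference above 0. The macrophage gene Cd68 read 9.64 to 11.11 and the myeloid adaptor Tyrobp 9.79 to 10.76, while the pan-leukocyte phosphatase Ptprc read 6.77 to 7.90. Since Pecam1 and Vwf are also platelet genes, Pf4 and Itga2b matter here: Pf4, a chemokine of platelets and of macrophages too, read 10.79 to 11.90 and the platelet integrin Itga2b 6.49 to 6.99. Signals were also summed over each list on the linear scale and the sum given as log2, so it leans on the brightest genes. The 8 endothelial members, of which Flt1 was brightest, gave 10.03 to 10.36 in marrow and 10.18 to 10.33 in blood cultures. The 16 leukocyte and macrophage genes gave 12.97 to 14.11 in marrow and 13.56 to 14.06 in blood cultures. The 8 platelet genes gave 12.53 to 12.83 in marrow and 12.83 to 12.97 in blood cultures. In that platelet list Pf4 and Cd9, a tetraspanin of many cell types including stromal cells (11.17 to 12.14), were above the median on all 6 arrays, and the other 6 genes were below it on every array. Among those 6, Gata1 read 5.21, 5.21 and 5.85 in marrow and 7.15, 6.68 and 6.97 in blood cultures, without overlap. Its difference of 1.51 ± 0.19 did not pass (limma adjusted p = 0.0743). Sums of different lists rest on different probe sets and gene numbers, so each is read only between blood and marrow. No gene of the leukocyte, platelet, mural or stromal list passed in limma, against 0.517% of all probe sets. The mural gene Aoc3 still differed widely, at 10.10 to 11.05 in marrow and 4.36 to 7.59 in blood cultures. Its difference was -5.05 ± 0.74 (limma adjusted p = 0.109). Of the 13 mural genes, 3 had a mean difference above 0. An unadjusted p under 0.05 was found for 0 of 16, 1 of 8, 4 of 13 and 6 of 12 genes of these lists, in the same order. Over all probe sets that share was 11.2%. The part of these cells in the Pecam1 and Vwf values was not tested.

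**Figure D3:**
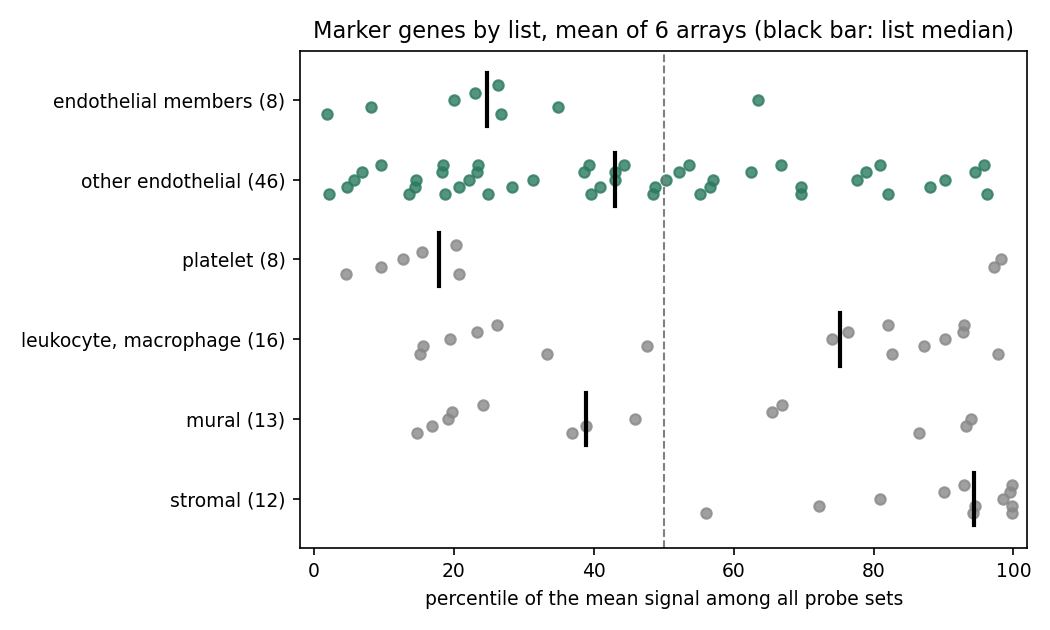
Percentile of each gene's mean signal over 6 arrays among all probe sets (horizontal axis), 1 point per gene, by marker list with the number of genes in brackets. The list median, a black bar, was at the 24.7th percentile for the endothelial members and at the 94.3rd for the stromal markers.

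In the VEGF system, the ligand genes Vegfa, Vegfb and Vegfc were above the median in every culture, the ligand gene Vegfd on 4 of 6 arrays (7.98 to 9.06) and the ligand gene Pgf on 1 (6.92 to 8.76). The co-receptor gene Nrp1 was above it on 5 of 6 arrays (7.73 to 10.23). Of 8 VEGF ligand and co-receptor genes on the array none passed in limma. An unadjusted p under 0.05 was found for 1 of the 8, against 11.2% of all probe sets. Of the 8, 3, namely Vegfa, Vegfb and Vegfc, were above the median on all 6 arrays. Vegfa, the principal ligand, read 11.58, 11.61 and 11.38 in marrow and 11.64, 11.95 and 11.33 in blood cultures. Vegfb read 11.14, 11.18 and 11.24 in marrow and 10.89, 11.02 and 10.89 in blood cultures, which did not overlap, but its difference of -0.25 ± 0.13 did not pass (limma adjusted p = 0.570). Vegfd, a lymphatic growth factor, differed by -0.54 ± 0.17 (limma adjusted p = 0.349). Pgf, placental growth factor and a ligand of Flt1, differed by 0.83 ± 0.38 and the co-receptor Nrp1 by 0.55 ± 0.33 (limma adjusted p = 0.526 and 0.655). With 1 rat left out they ranged from 0.43 to 1.37 and from 0.08 to 0.86, the 0.08 and the 1.37 without rat S5. Dimmer probe sets of Pgf and Nrp1 differed by 0.74 ± 0.29 and 0.84 ± 0.32 (limma adjusted p = 0.460 and 0.444). That of Nrp1 was higher in blood in all 3 rats. The third VEGF receptor, Flt4, read 6.55 to 7.15.

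In the angiopoietin system 4 genes of the list were on the array, and none passed in limma. An unadjusted p under 0.05 was found for 2 of the 4, against 11.2% of all probe sets. Angpt2, the context-dependent ligand of Tek, read 5.78, 5.41 and 5.53 in marrow and 5.26, 4.96 and 4.98 in blood cultures. These groups did not overlap, but all values were far below the table's median, and the difference of -0.51 ± 0.12 did not pass (limma adjusted p = 0.249). Ptprb, the phosphatase that acts on Tek, read 6.64 to 7.06. Angptl4, a regulator of lipoprotein lipase named after its resemblance to angiopoietins, differed by -1.54 ± 0.41 (limma adjusted p = 0.285), and by -0.955 without rat S4.

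In the adrenomedullin list 4 of 8 genes were above the median on all 6 arrays, namely Adm, Ramp1 (8.45 to 8.89), Ackr3, an atypical chemokine receptor that also binds adrenomedullin (10.22 to 11.41), and Crcp (8.46 to 9.04). Adm, adrenomedullin itself, read 11.32, 11.25 and 11.58 in marrow and 11.66, 11.23 and 11.31 in blood cultures, a difference of 0.02 ± 0.17. Calcrl, the receptor that RAMP2 accompanies, read 7.73, 8.27 and 7.51 in marrow and 7.02, 7.69 and 6.76 in blood cultures. Blood was lower in each rat, yet the difference of -0.68 ± 0.13 did not pass (limma adjusted p = 0.152), and a dimmer probe set differed by -0.52 ± 0.16 (limma adjusted p = 0.336). The alternative accessory protein gene Ramp3 read 6.66, 7.26 and 6.01 in marrow and 8.39, 6.79 and 8.85 in blood cultures. Like Ramp2 it was higher in blood in rats S4 and S6 and lower in rat S5, and its difference of 1.37 ± 0.63 had an interval of -0.27 to 3.01 (limma adjusted p = 0.536). It was 0.63 without rat S6 and 2.29 without rat S5. None of the 8 genes of this list on the array passed in limma. An unadjusted p under 0.05 was found for 1 of the 8, against 11.2% of all probe sets.

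Around nitric oxide, 1 of 16 genes on the array rose in blood cultures, none fell and 15 did not pass, against 0.24% of all genes higher and 0.25% lower. The gene was Ddah1, whose enzyme degrades asymmetric dimethylarginine, an inhibitor of nitric oxide synthases. It read 9.84, 9.44 and 9.70 in marrow and 11.47, 11.25 and 11.49 in blood cultures. All blood values were above all marrow values, with a rise of 1.74 ± 0.13 or 3.35-fold (interval 1.42 to 2.07, limma adjusted p = 0.0230). It passed under every other setting with all 3 rats (adjusted p 0.000930 to 0.0468) but not in each fit on 2 rats: it passed without rat S5 (1.71, adjusted p = 0.0453) and not without rat S4 (1.80, adjusted p = 0.329) or rat S6 (1.72, adjusted p = 0.197). Cav1, whose membrane scaffold caveolin-1 restrains the endothelial synthase, read 10.61, 9.78 and 11.10 in marrow and 12.04, 10.64 and 11.91 in blood cultures. Its difference of 1.03 ± 0.18 did not pass over all probe sets (limma adjusted p = 0.133). It did among the 8135 above the filter on signal (adjusted p = 0.0482), where 2.15% of probe sets passed. The other Cav1 probe set differed by 1.33 ± 0.31 and passed in neither (limma adjusted p = 0.231 and 0.111). Averaged over its probe sets, Cav1 did not pass (limma adjusted p = 0.138). Gucy1a1, a subunit of the nitric oxide receptor, differed by 0.54 ± 0.15 (limma adjusted p = 0.312) and on a dimmer probe set by -0.51 ± 0.32. The inducible synthase Nos2 read 7.75 to 8.10.

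**Figure D4:**
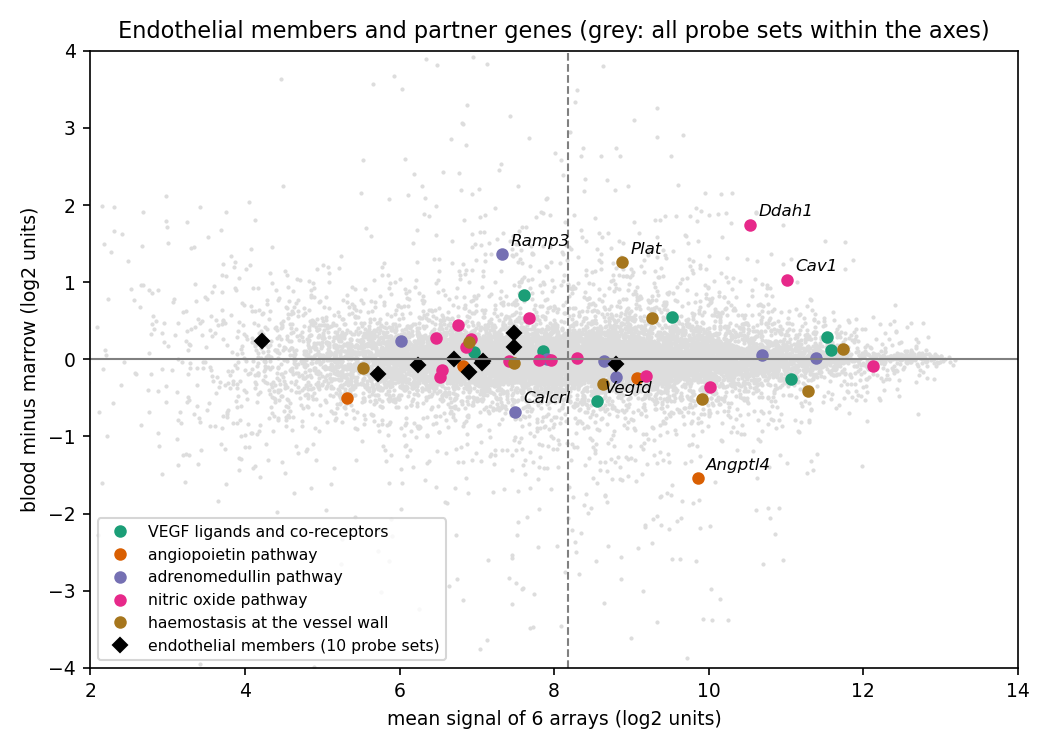
Blood minus marrow difference (vertical axis, log2 units) against the mean signal of the 6 arrays (horizontal axis, log2 units) for the endothelial probe sets and the genes of 5 partner lists, with all probe sets that fall within the axes in grey and the median of all values dashed. The endothelial probe sets lie between -0.19 and 0.35, and Ddah1, at 1.74, is the one coloured gene past the threshold.

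Of 9 haemostasis genes on the array none passed in limma. An unadjusted p under 0.05 was found for 1 of the 9, against 11.2% of all probe sets. Plat, tissue plasminogen activator, which endothelium releases, read 8.35, 8.52 and 7.88 in marrow and 9.56, 9.23 and 9.73 in blood cultures, without overlap. Its difference was 1.26 ± 0.24 (limma adjusted p = 0.167). F3, tissue factor, the starter of coagulation, was bright in both groups at 10.99 to 11.70 and differed by -0.42 ± 0.18 (limma adjusted p = 0.498).

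None of the 46 further endothelial genes passed over all probe sets in the limma fit used above. An unadjusted p under 0.05 was found for 10 of the 46, against 11.2% of all probe sets. The smallest p belonged to Gja5, which encodes connexin 40 of arterial endothelium. It read 10.93, 9.35 and 10.63 in marrow and 7.76, 6.97 and 8.86 in blood cultures, without overlap. Its difference was -2.44 ± 0.29 (limma adjusted p = 0.0639), but -0.56 ± 0.17 on its other probe set (adjusted p = 0.339). Among the probe sets above the filter its adjusted p was 0.0158, but it met that filter through 3 marrow arrays, where it was high, and 1 blood array, so this is no support. Eng, the co-receptor endoglin of endothelium and stroma, read 8.25, 9.16 and 9.25 in marrow and 10.52, 10.27 and 10.72 in blood cultures (difference 1.62 ± 0.25, limma adjusted p = 0.116, or 0.0380 above the filter). Apln, the peptide ligand apelin, differed by -2.20 ± 0.48 and Ephb4, a venous receptor kinase, by 1.20 ± 0.29 (limma adjusted p = 0.212 and 0.249). Without rat S5 the Apln difference was -2.91 and passed (limma adjusted p = 0.0237), in a fit where 165 probe sets passed. It was -1.72 without rat S4 and -1.96 without rat S6, and passed in neither (limma adjusted p = 0.633 and 0.641). The other Apln probe set differed by -1.57 ± 0.34 (limma adjusted p = 0.212).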

How the data were processed

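Total RNA of 6 cultures was measured on 1 array each, 3 of blood and 3 of marrow. The deposited values are log2 signals per probe set, taken as log2 from their range (0 to 13.31). GCOS is the only tool in the submitters' processing notes, and the sources used here do not give the summary method or normalization. Empty cells (86 of 95538, in 75 probe sets and no member) stayed empty. Run settings of the arrays, per the file headers, were read for batches. Each position of a fluidics station held 1 array. Blood arrays were at positions 1 or 3 and marrow arrays at positions 2 or 4, so source and position cannot be told apart.

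All 15866 probe sets other than 57 controls were fitted with limma 3.58.1 in R 4.3.3 (rat as a fixed term, two-sided, pseudocount 0), without a filter on signal because most members are dim. The series' design text gives the pairing by rat. As a check, deviations from the group means had correlations of -0.16, 0.21 and 0.15 between the 2 arrays of rats S4, S5 and S6, and of -0.33 to 0.29 between blood and marrow arrays of different rats. That overlap means the pairing rests on the series design text, not on these correlations. Array pairs differed by an SD of 0.400 or more. The fit was tested on 10 simulated data sets of 15791 probe sets. Few probe sets were changed there, and the noise was normal with each probe set's residual SD. It recovered 27.2% of changes of 1 log2 unit, 72.2% of 2, 91.8% of 4 and 95.4% of 6, so small changes were often missed. Recovery depends on the share changed and on the noise, so it can differ for the real arrays. SEs and intervals (95%) are limma's, and precision is limited by having only 6 arrays.

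Of all probe sets 12789 had 1 symbol, 312 several and 2822 none. The brightest probe set stood for a gene in list counts. Members and lists were chosen with earlier results of these data known. Named were all members, up to 4 genes of each list with the smallest p and any past the threshold, a fixed set of markers, and the 3 genes most like 2 members. Further genes were picked for their level or role after their values were seen (Vegfa, Vegfc, Adm, Flt4, Nos2, Cldn5, Emcn, Icam2, Erg and those counted above the median). Not every gene this rule allows is described. Alternatives were a filter (above 8.18 on at least 3 of 6 arrays), scaling, quantile normalization, an offset of 32, eBayes with trend and robust, no rat term, station in place of the rat, averaging probe sets, and leaving out each rat. Tables were made with pandas 2.3.3 in Python 3.11.15, and figures with matplotlib 3.10.9.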

Additional observations from a re-analysis of the deposited data

How the results depend on the processing

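No member probe set passed in limma under any alternative run. Over all probe sets, the counts of higher and lower calls were 42 and 40, and moved to 80 and 95 with the filter on signal, 25 and 23 with scaling to a common trimmed mean, 22 and 21 with quantile normalization, 109 and 121 with an offset of 32, 125 and 134 with eBayes with trend and robust, and 39 and 63 without the rat as a block. With 1 rat left out they ranged from 0 to 78 and from 0 to 87. They were 0 without rat S4 and without rat S6, where limma gave 1240 and 1208 at an unadjusted p under 0.05. With all 3 rats, the 9 member probe sets with a difference other than 0 kept its sign in 62 of 64 values. Many of these could not differ, so the count is no evidence of stability. The filter, eBayes with trend and robust, station for rat and no rat term all leave a balanced mean difference unchanged. The exceptions to the kept sign were both Flt1 probe sets with a negative difference when averaged into 0.0089. With 1 rat left out, 11 of 27 of their values changed sign, over ranges of -0.135 to 0.08 for Kdr, -0.095 to 0.01 for Flt1 1369087_at, -0.2 to 0.04 for Flt1 1377113_at, -0.03 to 0.77 for Pecam1, -0.38 to 0.105 for Vwf, -0.35 to 0.05 for Nos3, -0.27 to 0.09 for Plvap and -0.04 to 0.675 for Ramp2. Flt1 1370492_a_at kept its sign (0.05 to 0.25), and Tie1, with a difference of 0 and so no sign, ran from -0.09 to 0.11, against -0.0037 to 0.0020 with all 3 rats. Among other named genes, Plau (-1.115 to 0.055), Itga2b (-0.09 to 0.17) and Ptprc (-0.085 to 0.5) changed sign that way. Other settings called Cav1, Gja5, Eng, Aoc3 and Gata1 in 13 of 335 values. For Cav1, Gja5 and Eng these were the filter, the offset of 32 and eBayes with trend and robust. Gata1 was called with the offset and with that eBayes setting. Aoc3 met the filter only through its 3 marrow arrays, and Gja5 through its 3 marrow arrays and 1 blood array, so their calls there are no support. The cause was not tested. The count of member probe sets above the median on all 6 arrays was 1 with each array's own median and with the 60th percentile. The filter keeps 1 member, so it says nothing of the other 9. Signals below the median have no known background, which limits what the dim members can show.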
